A study of Drosophila melanogaster with 11 samples.

Results

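The genes examined here encode the proteins of the mitochondrial ribosome in Drosophila, taken as every gene whose FlyBase symbol starts with mRpL (large subunit) or mRpS (small subunit). Of 73 such symbols, 72 had a row in the files, out of 17753 genes in all, 47 of them mRpL and 25 mRpS, and mRpS5 was not analysed here. They were measured by poly(A) mRNA-seq of whole wild-type Oregon-R embryos that were collected from population cages. No transgene, mutation or treatment was used in any group. The 11 libraries covered 4 collection windows, 2–4 h (n = 3), 14–14.5 h (n = 2), 14–17 h (n = 4) and 17–17.5 h (n = 2) after egg deposition, and the replicates came from separate collections of embryos on different days. Each library pooled whole embryos with all their cell types, so a change in the number of cells of a type and a change in RNA per cell cannot be told apart.

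The mitochondrial ribosome translates the few mRNAs that are made from the mitochondrial genome, all of which encode subunits of the oxidative phosphorylation machinery. Its rRNAs come from the mitochondrial genome, whereas all of its proteins are encoded in the nucleus, translated in the cytosol and imported. Many of these proteins have counterparts in bacterial ribosomes, and others exist only in mitochondrial ribosomes. The early embryo starts with mRNA that the mother deposited in the egg, and its own transcription takes over during the 2–4 h window, whereas at 14 h and later the larval tissues are formed.

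Library depth lay between 14472809 and 38904916 estimated counts, lowest in replicate 2 at 2–4 h, and 3 counts corresponded to between 0.0771 and 0.207 CPM (counts scaled to the library total). Marker genes of late tissues summed to between 8614 and 17345 TPM (transcript level scaled by gene length and library) in the 3 later windows, against between 49.6 and 102 TPM at 2–4 h. Markers of early embryos summed to between 53.1 and 101 TPM in the later windows, against between 2438 and 2782 TPM at 2–4 h. Of 15 late markers tested singly against 2–4 h in edgeR, 14 were higher and 1 lower at 14–14.5 h. At both 14–17 h and 17–17.5 h, 13 were higher and 2 did not pass. All 12 early markers tested were lower in each later window. Replicate 4 at 14–17 h stood apart from replicates 1 to 3 of its window: its median squared difference from each of them was between 10.7 and 12.6 times counting noise, against between 5.10 and 8.60 times among replicates 1 to 3. The large mitochondrial rRNA mt:lrRNA held between 10.02% and 14.8% of TPM at 2–4 h and 14–17 h, and between 5.89% and 6.49% in the narrow windows of 14–14.5 h and 17–17.5 h. The labels give no date, run or instrument for a library, so the window and the preparation of its libraries cannot be told apart.

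The mitochondrial ribosomal protein genes are short and lie on all large chromosomes (dm6), with 12 on 2L, 12 on 2R, 16 on 3L, 21 on 3R and 11 on X. Their median span was 885 bp (range 390 to 13391 bp), against 1694 bp over all genes, and 63 of the 72 have introns. The deposited lengths of all 72 equal the gene span with introns, so TPM is per length of span. Another gene overlaps 43 of them (59.7%, against 46.7% of 13844 protein-coding genes), mostly over a short stretch, and 7 are overlapped over more than 25% of their span (9.7%, against 20.4%). These are mRpL13, mRpL53, mRpS9, mRpS24, mRpS21, mRpS14 and mRpL17. The library kit did not mark the strand, so reads from overlapping genes on opposite strands cannot be told apart, and values of these 7 genes are uncertain.

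The 2 genes that are overlapped over their whole span could not be measured on their own. mRpL13, a large subunit protein with a bacterial counterpart (chromosome 2L from 18858028 to 18859248), lies inside CG10602 on the same strand. It was assigned 0 counts in all 8 later libraries, against 211, 119.95 and 217 estimated counts at 2–4 h, while CG10602 held between 1774 and 3973 counts in every library. The counts given to mRpL13 at 2–4 h made up between 5.19% and 6.33% of those of the pair. mRpL53, a protein found only in mitochondrial ribosomes (chromosome 2R from 13954195 to 13955664), has the same span as CG33155, received exactly the same counts as that gene in every library, and lies inside AGO1 on the other strand. It was listed at 0 counts in the 3 libraries at 2–4 h, at 524 and 663 counts at 14–14.5 h, at 159, 43.4, 118 and 193 counts at 14–17 h, and at 341 and 276 counts at 17–17.5 h. No fold change is given for these genes, although both are counted below as the test called them.

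The other 70 genes were detected in every library. As a group they were expressed at a moderate level, which in deposited TPM was lowest at 17–17.5 h. Over all 72 genes, the median of the mean TPM was 79.2 for the 2–4 h window, 78.7 for 14–14.5 h, 80.9 for 14–17 h and 57.5 for 17–17.5 h. Among genes above 1 TPM, between 77.0% and 87.3% lay below these medians. Summed over the 72 genes, the level was 5670 ± 210.1 TPM at 2–4 h (SD, n = 3), 6274 ± 388 TPM at 14–14.5 h (n = 2), 5815 ± 214 TPM at 14–17 h (n = 4) and 4854 ± 205 TPM at 17–17.5 h (n = 2). The sum at 17–17.5 h was below that of every other library, at 0.856 times the mean at 2–4 h and 0.774 times the mean at 14–14.5 h. With CPM scaled by TMM factors over all 11 libraries, these ratios were 0.972 and 0.911. TMM, the trimmed mean of M values, sets the libraries level over most genes. Each pairwise fit below took its TMM factors from the compared windows alone, which gave a different scale. mRpL2 at 17–17.5 h and 2–4 h had 34.3 and 14.4 CPM on that pairwise scale, against 32.8 and 15.7 CPM over all 11 libraries. In that pairwise fit the median log2 fold change of the members was 0.23. The sum at 14–17 h was 1.03 times that at 2–4 h in TPM and 0.981 times on the TMM scale over all 11 libraries.

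Single members differed widely in level. The highest means over the 4 windows belonged to mRpS7, mRpL55 and mRpL12, at 175, 173 and 172 TPM. mRpS7, a protein of the head of the small subunit, ranked 7 of 72 at 17–17.5 h, against 1 of 72 at 2–4 h. mRpL55, which has no bacterial counterpart, and mRpL12, the stalk protein that binds the translation factors, ranked 1 and 2 at 14–14.5 h, against 37 and 29 at 2–4 h. mRpS9, whose bacterial counterpart reaches the decoding site, was among the lowest per length of span, at 14.3 TPM and rank 71 of 72. Its span of 13391 bp holds only 1293 bp of exons, and with exonic length in place of span it ranked 4 of 72. No other member had a span above 2242 bp, and the 3 highest members stayed the 3 highest by exonic length.

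The comparison of 14–17 h with 2–4 h asks how these genes, which are used in every cell, differed between differentiated tissues and the early embryo. Of 72 mitochondrial ribosomal protein genes, 27 were higher at 14–17 h, 19 were lower and 26 did not pass an adjusted p of 0.05 in edgeR's quasi-likelihood test. Over all 11623 genes tested, 48.2% were higher and 42.4% were lower, so that 90.6% passed. The 63.9% of the mitochondrial ribosomal protein genes that passed were thus a smaller share than among all genes, and their changes were also smaller: the median size of the log2 fold change was 0.41 for the 72 genes and 1.97 for all genes. Their median log2 fold change was 0.11, against 0.19 over all genes. It was 0.01 without replicate 3 at 14–17 h, 0.04 without replicate 1 at 14–17 h, 0.02 without replicate 2 at 2–4 h, 0.03 with all 11 libraries in the fit and 0.21 with RLE factors or DESeq2. Of the large subunit genes 20 were higher and 12 lower, and of the small subunit genes 7 were higher and 7 lower. With RLE factors in place of TMM, the median over all genes moved to 0.28 and the counts were 35 higher and 19 lower.

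**Figure D1:**
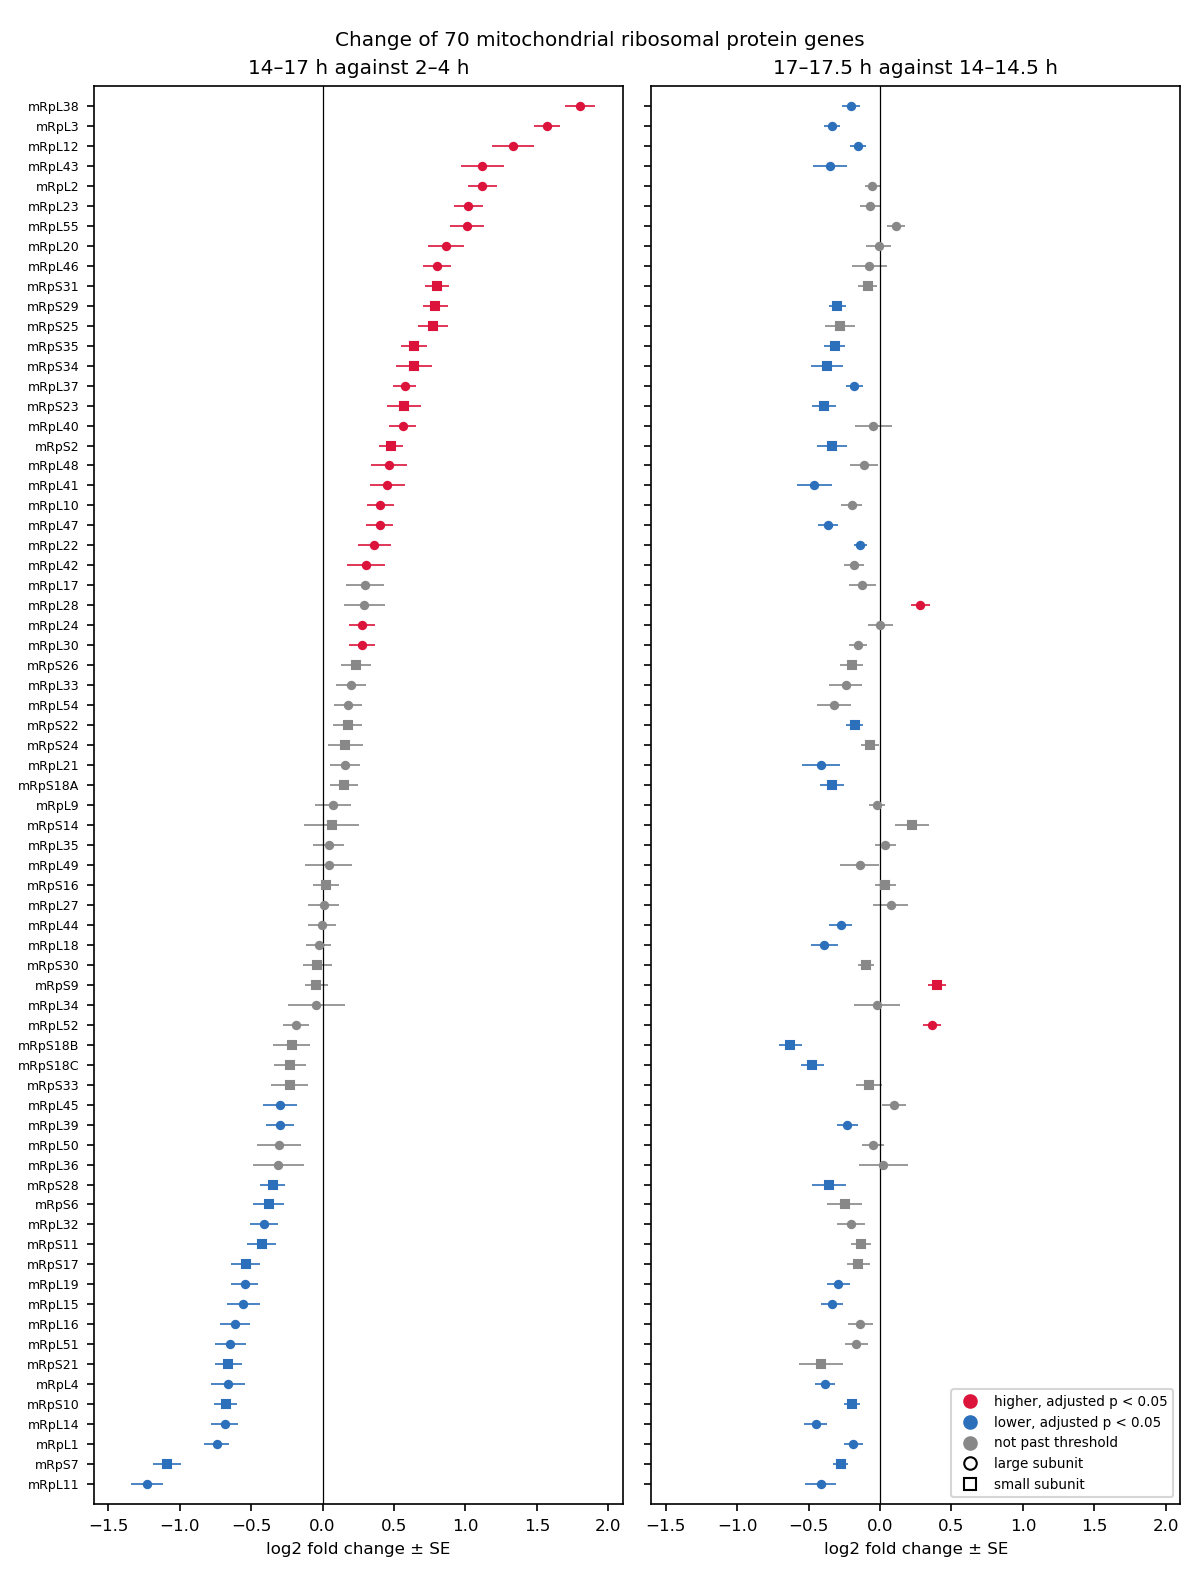
Log2 fold change ± SE (x axis) of 70 mitochondrial ribosomal protein genes (y axis, ordered by the left panel; mRpL13 and mRpL53 are left out) at 14–17 h against 2–4 h (left, n = 4 and 3 libraries) and at 17–17.5 h against 14–14.5 h (right, n = 2 and 2). Circles are large and squares small subunit genes; red is higher and blue lower at an adjusted p under 0.05. The left panel runs from −1.23 for mRpL11 to 1.80 for mRpL38, and in the right panel 3 genes are red.

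The genes that rose most at 14–17 h, apart from mRpL53, were the large subunit genes mRpL38, mRpL3 and mRpL12. mRpL38, a protein of the central protuberance that is found only in mitochondrial ribosomes, had 69.4, 72.5, 68.4 and 69.0 TPM at 14–17 h, against 20.7, 18.1 and 20.5 TPM at 2–4 h. It rose by a log2 fold change of 1.80 ± 0.10 (SE; adjusted p = 5.9e-08), and no library of either group overlapped the other. Its gene lies on chromosome X from 14226289 to 14227949 and overlaps no other gene. mRpL3, a core protein near the peptidyl transferase centre (chromosome X from 15761248 to 15762663), had 89.1, 87.2, 83.2 and 77.4 TPM at 14–17 h, against 28.1, 27.5 and 28.9 TPM at 2–4 h. Its log2 fold change was 1.57 ± 0.09 (adjusted p = 7.5e-08), again without overlap.

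The stalk protein mRpL12 had 241, 227, 228 and 199.8 TPM at 14–17 h, against 91.6, 70.3 and 101 TPM at 2–4 h. The groups did not overlap, and the log2 fold change was 1.33 ± 0.15 (adjusted p = 1e-05). The partners of mRpL12 at the base of the stalk did not change alike. mRpL10, which anchors it, had a log2 fold change of 0.40 ± 0.09 (adjusted p = 0.0021), and mRpL11, which lies beside it on the rRNA, was the member that fell most apart from mRpL13. mRpL11 had 42.7, 48.9, 49.98 and 38.99 TPM at 14–17 h, against 107, 103 and 105 TPM at 2–4 h. Its log2 fold change was −1.23 ± 0.11 (adjusted p = 2.4e-06), so that mRpL12 and mRpL11 changed in opposite directions, each without overlap of libraries.

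mRpL43 (log2 fold change 1.12 ± 0.15), mRpL2 (1.12 ± 0.10), mRpL23 (1.02 ± 0.10) and mRpL55 (1.01 ± 0.12) were also more than 2-fold higher at 14–17 h. mRpL2 belongs to the peptidyl transferase centre and mRpL23 to the exit of the peptide tunnel, while mRpL43 is specific to mitochondria. With mRpL53, 8 members were more than 2-fold higher and 3 more than 2-fold lower (mRpL13, mRpL11 and mRpS7), or 11 of 72. Over all genes tested, 40.4% were more than 2-fold higher and 31.4% more than 2-fold lower.

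On the other side, mRpS7 had 124, 133, 119.9 and 145 TPM at 14–17 h, against 287, 266 and 276 TPM at 2–4 h. It fell by 1.09 ± 0.10 on the log2 scale (adjusted p = 2.4e-06), and its lowest 2–4 h library was above its highest 14–17 h library. mRpL1, the protein of the mobile L1 stalk, had 84.8, 83.5, 87.2 and 83.3 TPM at 14–17 h, against 138, 136 and 149.8 TPM at 2–4 h (log2 fold change −0.74 ± 0.09, adjusted p = 2.2e-05). mRpL14, which lies at the interface of the subunits, fell by 0.69 ± 0.09 and mRpS10, a protein of the small subunit head, by 0.68 ± 0.08 on the log2 scale. mRpL51, specific to mitochondria, fell by 0.65 ± 0.11 and the small subunit protein mRpS28 by 0.35 ± 0.09.

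mRpS29, the GTP-binding protein known in mammals as DAP3, was among the small subunit genes that rose most. It had 69.2, 72.2, 74.1 and 68.4 TPM at 14–17 h, against 39.2, 41.3 and 42.4 TPM at 2–4 h (log2 fold change 0.79 ± 0.09, adjusted p = 1.1e-05). mRpL44, which carries a fold of the RNase III family, had 101, 104, 96.2 and 89.4 TPM at 14–17 h, against 98.1, 88.5 and 105 TPM at 2–4 h. Its libraries overlapped, and its change did not pass the test (adjusted p = 0.97).

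**Figure D2:**
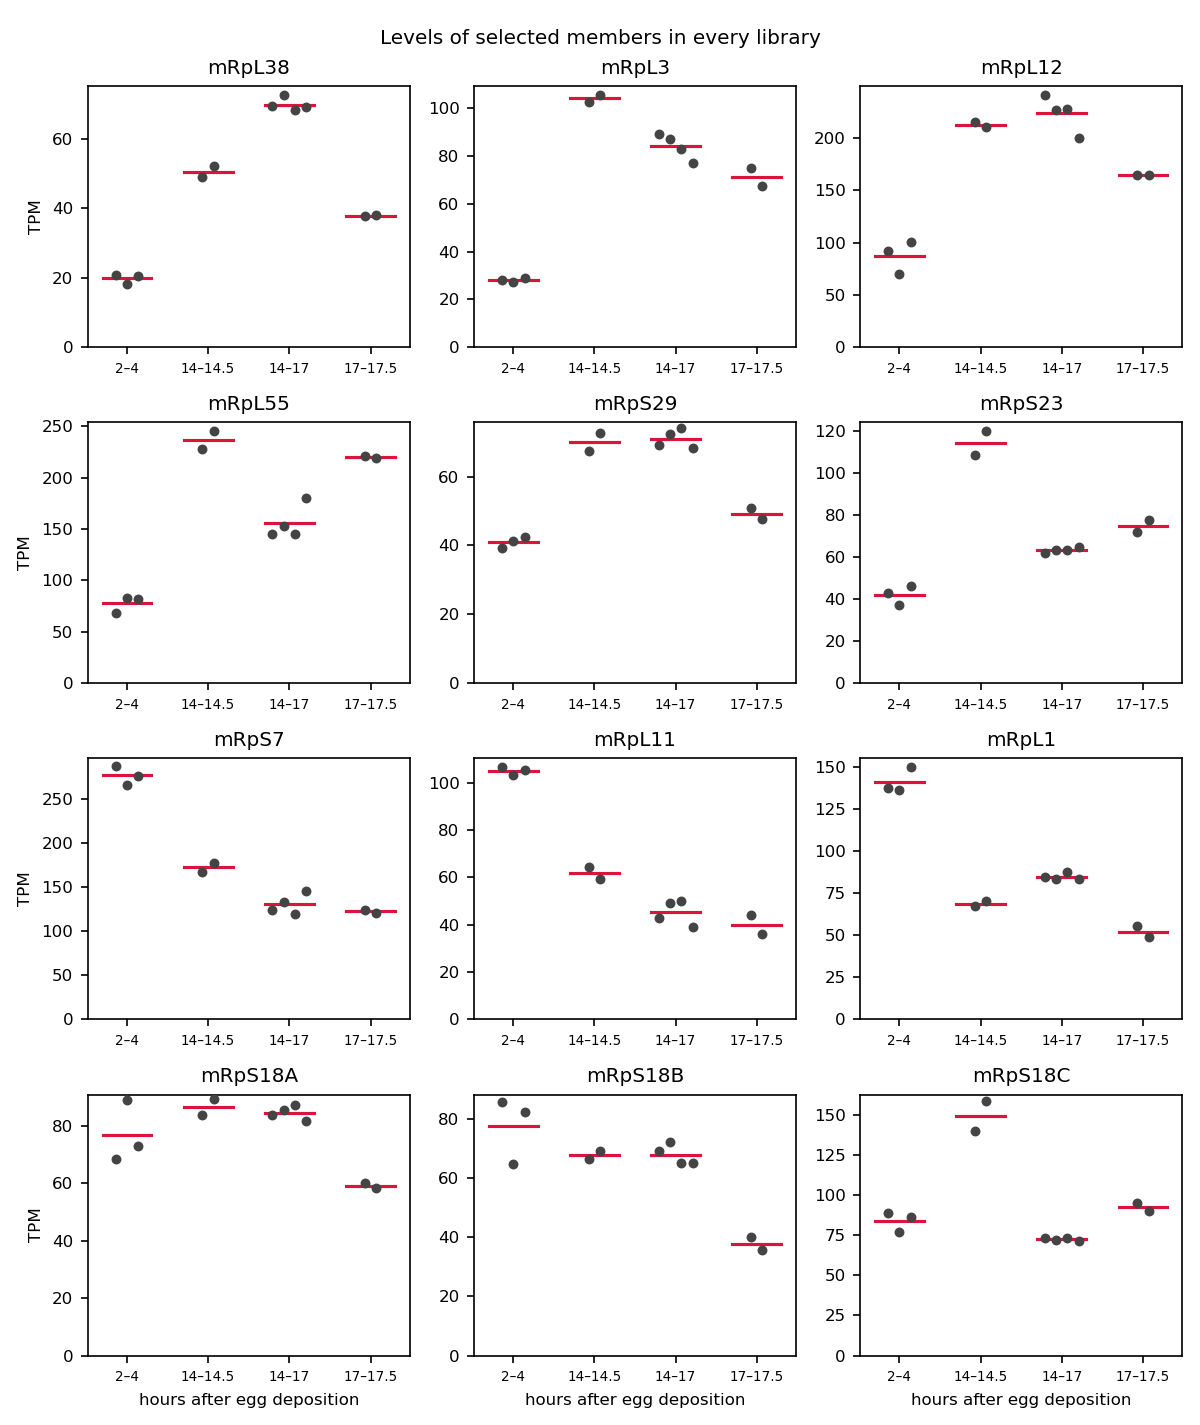
TPM (y axis, from 0) of 12 mitochondrial ribosomal protein genes in each of the 11 libraries, by collection window in hours after egg deposition (x axis); points are libraries in order of replicate number and lines are window means. mRpL38 is highest at 14–17 h (68.4 to 72.5 TPM), mRpS7 and mRpL11 are highest at 2–4 h, and mRpS18B is lowest at 17–17.5 h (35.5 and 40.2 TPM).

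The narrow windows were set against the same 2–4 h libraries, so these comparisons are not independent of the preceding comparison. At 14–14.5 h, 33 of the 72 genes were higher than at 2–4 h (46.7% of all genes tested were higher), 23 were lower (43.3%) and 16 did not pass, where 90.0% of all genes passed in either direction. At 17–17.5 h, 36 were higher (49.2%), 26 were lower (42.3%) and 10 did not pass, where 91.4% of all genes passed. The count of higher genes at 17–17.5 h was 23 without replicate 2 at 17–17.5 h, and likewise 23 without replicate 3 at 2–4 h. In that comparison the median log2 fold change was 0.23 on the TMM scale of the pairwise fit. The median log2 ratio of TPM over the 70 detected genes was, however, −0.15. On the TMM scale of each fit, the median was −0.02 without replicate 2 at 17–17.5 h and 0.0039 without replicate 2 at 2–4 h. It was between 0.08 and 0.20 without any 1 of the other 3 libraries. With no filter it was −0.03, and with all 11 libraries in the fit 0.03. The direction of the group as a whole thus turned with the scale, with 1 library and with the filter. Among the 36 higher genes, mRpL27, mRpL33, mRpL41, mRpL48 and mRpS9 had a lower mean TPM at 17–17.5 h than at 2–4 h. In the comparisons of 14–14.5 h and of 14–17 h with 2–4 h, no call differed in direction between both scales.

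Relative to 2–4 h, mRpL55 was among the largest changes of both narrow windows, with 228 and 245 TPM at 14–14.5 h and 221 and 219 TPM at 17–17.5 h, against 68.5, 83.0 and 81.6 TPM at 2–4 h. Its log2 fold changes were 1.59 ± 0.11 and 1.90 ± 0.11, in that order of windows, and neither window overlapped 2–4 h. mRpL3 had 103 and 106 TPM at 14–14.5 h and 75.1 and 67.3 TPM at 17–17.5 h (log2 fold changes 1.86 ± 0.10 and 1.72 ± 0.07). mRpS23, a small subunit protein specific to mitochondria, had 109 and 120.1 TPM at 14–14.5 h and 72.2 and 77.9 TPM at 17–17.5 h, against 43.0, 37.4 and 46.3 TPM at 2–4 h (log2 fold changes 1.40 ± 0.14 and 1.21 ± 0.10). mRpL38 was higher by 1.32 ± 0.12 and 1.31 ± 0.08 and mRpL12 by 1.25 ± 0.17 and 1.29 ± 0.12 on the log2 scale.

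Several decreases of more than 2-fold in the narrow windows were in large subunit genes. mRpL36 and mRpL34, small proteins with bacterial counterparts, fell by 1.39 ± 0.15 and 1.32 ± 0.16 on the log2 scale at 14–14.5 h, against 2–4 h. mRpL45, which in mammals ties the ribosome to the inner membrane, fell by 1.27 ± 0.16, and mRpL32, which in yeast and mouse is matured by the m-AAA protease, fell by 1.21 ± 0.10. At 17–17.5 h, against 2–4 h, the log2 fold changes of these genes were −1.18 ± 0.14 for mRpL36, −1.16 ± 0.13 for mRpL34, −0.98 ± 0.10 for mRpL45 and −1.23 ± 0.10 for mRpL32. mRpL49, specific to mitochondria, had −1.12 ± 0.17 and −1.07 ± 0.11 at 14–14.5 h and 17–17.5 h. At 14–17 h, against 2–4 h, the log2 fold changes were −0.31 ± 0.18 for mRpL36, −0.04 ± 0.20 for mRpL34 and 0.04 ± 0.17 for mRpL49, none of which passed the test.

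Within late embryogenesis, 17–17.5 h was compared with 14–14.5 h, which asks what changed over the last hours covered. More members were lower than higher, and most did not pass the test. Of 71 genes tested (mRpL13 had too few counts), 3 were higher at 17–17.5 h (32.0% of all 11267 genes tested were higher), 31 were lower (31.5%) and 37 did not pass, where 63.6% of all genes passed. Without mRpL53, their log2 fold changes lay between −0.63 and 0.40 with a median of −0.18, against −0.04 over all genes tested. In TPM, 66 of 70 genes had a lower mean at 17–17.5 h, with a median log2 ratio of −0.39, against −0.25 over 9935 genes above 1 TPM in both windows. The count of 31 lower genes was 12 with DESeq2, 18 with all 11 libraries in the fit, and 10 without replicate 2 at 14–14.5 h, 16 without replicate 1 at 17–17.5 h and 17 without replicate 2 at 17–17.5 h. No member changed more than 2-fold, whereas 15.8% of all genes were more than 2-fold higher and 9.63% more than 2-fold lower.

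The 3 higher genes were mRpS9, mRpL52 and mRpL28. mRpL52, specific to mitochondria, had 154 and 139 TPM at 17–17.5 h, against 134 and 129 TPM at 14–14.5 h (log2 fold change 0.36 ± 0.06, adjusted p = 0.0037), without overlap. mRpS9 had 14.9 and 14.8 TPM at 17–17.5 h, against 12.4 and 13.8 TPM at 14–14.5 h (0.40 ± 0.06, adjusted p = 0.0021). Over 6.5% of its span it overlaps ArgRS-m, the mitochondrial arginyl-tRNA synthetase, on the other strand. The counts of ArgRS-m itself were lower at 17–17.5 h (183 and 151) than at 14–14.5 h (278 and 221). The gene wtrw, also on the other strand, overlaps mRpS9 over 73.3% of its span and had 0 counts in every library. Whether these overlaps bear on the change of mRpS9 was not tested. mRpL28, a protein with a bacterial counterpart, had 86.2 and 77.8 TPM at 17–17.5 h, against 80.7 and 75.5 TPM at 14–14.5 h (0.28 ± 0.07, adjusted p = 0.012). Its libraries overlapped in TPM, and its call was lost without replicate 2 at 14–14.5 h.

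Of the genes that fell, mRpS18B changed most apart from mRpL53, followed by mRpS18C (−0.47 ± 0.08), mRpL41 (−0.46 ± 0.12) and mRpL14 (−0.45 ± 0.08). The calls of mRpL41 and of mRpS18A, given below, were lost with DESeq2. The 3 mRpS18 genes encode paralogs of a single bacterial protein, and in mammals the A form sits in the large subunit. mRpS18B had 40.2 and 35.5 TPM at 17–17.5 h, against 66.2 and 69.1 TPM at 14–14.5 h, without overlap (log2 fold change −0.63 ± 0.08, adjusted p = 0.001). mRpS18C had 88.7, 76.9 and 86.6 TPM at 2–4 h, 140.1 and 158 TPM at 14–14.5 h, 73.4, 72.1, 73.0 and 71.2 TPM at 14–17 h, and 95.3 and 90.2 TPM at 17–17.5 h. Its level was thus highest at 14–14.5 h and lowest at 14–17 h, although these windows begin together. mRpS18A had 60.1 and 58.2 TPM at 17–17.5 h, against 83.6 and 89.3 TPM at 14–14.5 h (−0.34 ± 0.08, adjusted p = 0.014). Its 2–4 h libraries had 68.4, 88.8 and 72.8 TPM, and it did not pass the test at 14–14.5 h, 14–17 h or 17–17.5 h against 2–4 h.

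The comparison of 14–17 h with 2–4 h and that of 17–17.5 h with 14–14.5 h share no library. Of the 27 genes that were higher at 14–17 h than at 2–4 h, 14 were lower at 17–17.5 h than at 14–14.5 h and 13 did not pass, among them mRpL55, mRpL2 and mRpL23. Of the 19 that were lower at 14–17 h, 10 were lower again, 8 did not pass and mRpL13 was not tested. The 14 genes were 51.9% of those higher at 14–17 h and 45.2% of the 31 lower at 17–17.5 h, and the 10 genes were 52.6% of those lower at 14–17 h and 32.3% of the 31. Over all genes, 28.7% of the 5606 higher and 32.1% of the 4928 lower at 14–17 h were lower at 17–17.5 h, and of the 71 members tested 43.7% were. These overlaps rest on the 31 lower calls, of which only 12 remained with DESeq2. The calls lost included mRpL12 and mRpL38 of the 14 genes and mRpL1 and mRpL11 of the 10. The 3 genes that were higher at 17–17.5 h had not passed the test at 14–17 h against 2–4 h.

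The 14–17 h window begins with the earlier narrow window and ends where the later one begins, yet many members did not lie between them. The next counts use the TMM scale over all 11 libraries. All 4 libraries at 14–17 h lay outside the range of the 4 narrow-window libraries for 32 of the 72 genes (44.4%). The share was 32.2% of 12082 genes and 67.0% of 88 cytosolic ribosomal protein genes. The 14–17 h libraries lay above that range for 17 members (15.9% of all genes and 47.7% of the cytosolic ones). They lay below it for 15 members (16.3% of all genes and 19.3% of the cytosolic ones). In deposited TPM the count was 29 genes, and without replicate 4 at 14–17 h it was 38. The median span was 1154 bp for the 17 genes above, 823 bp for the 15 below and 861 bp for the 39 others apart from mRpL13. No test was made of this difference between windows.

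mRpL34 had 111, 117, 119 and 65.1 TPM at 14–17 h, against 42.7 and 42.6 TPM at 14–14.5 h and 38.2 and 34.3 TPM at 17–17.5 h. Its 2–4 h libraries had 105, 106 and 105 TPM, so replicates 1 to 3 at 14–17 h were near the 2–4 h level while replicate 4 was nearer to the narrow windows. mRpL49 had 93.9, 99.8, 94.6 and 63.6 TPM at 14–17 h, against 35.1 and 43.9 TPM at 14–14.5 h and 31.2 and 30.4 TPM at 17–17.5 h, and mRpL36 had 77.5, 81.2, 82.9 and 48.6 TPM at 14–17 h, against 32.7 and 36.1 TPM at 14–14.5 h and 34.8 and 25.7 TPM at 17–17.5 h. In both genes replicate 4 was the lowest of its window and still above every narrow-window library.

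Among genes below the narrow windows, mRpL50, specific to mitochondria, had 77.8, 79.6, 78.2 and 96.0 TPM at 14–17 h, against 143 and 167 TPM at 14–14.5 h and 135 and 125 TPM at 17–17.5 h. mRpS26, a small subunit protein specific to mitochondria, had 80.3, 85.7, 77.4 and 92.4 TPM at 14–17 h, against 131 and 153 TPM at 14–14.5 h and 111 and 103 TPM at 17–17.5 h. mRpS24, whose bacterial counterpart is S3 and which TBC1d7 overlaps over 54.0% of its span, had 81.3, 89.0, 83.2 and 97.1 TPM at 14–17 h, against 159 and 167 TPM at 14–14.5 h and 142 and 126 TPM at 17–17.5 h. In all 3 genes replicate 4 was the highest library of its window, on the side of the narrow windows.

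**Figure D3:**
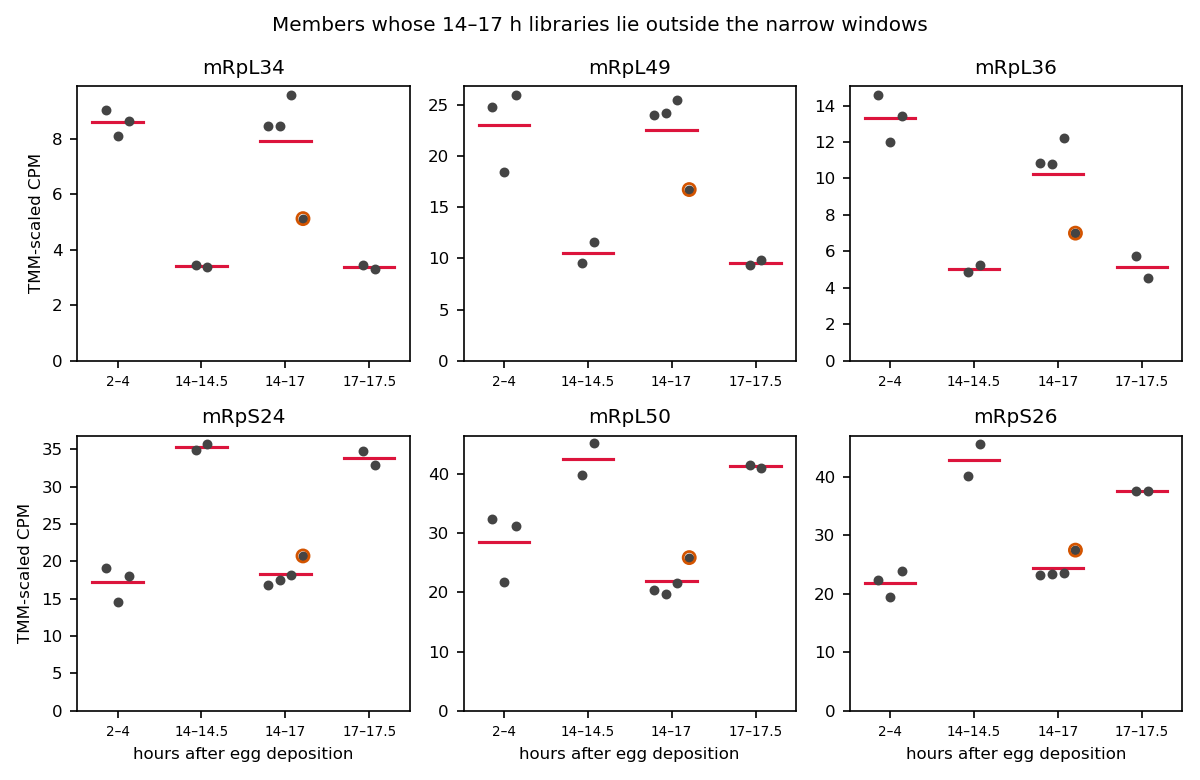
CPM scaled by TMM factors over all 11 libraries (y axis, from 0) of 3 genes above (top row) and 3 genes below (bottom row) the narrow windows at 14–17 h, by window in hours after egg deposition (x axis); points are libraries, lines are window means and the circle marks replicate 4 at 14–17 h. Replicate 4 sits closer to the narrow windows than replicates 1 to 3 in the 6 genes shown, as for mRpS26 with 27.5 against 23.2 to 23.5. Other genes outside the narrow windows, such as mRpS18C and mRpL24, did not show this.

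Replicate 4 at 14–17 h lay outside the range of replicates 1 to 3 for 52 of the 72 genes (72.2%), against 62.1% of all genes, and for 41 of the 52 (78.8%, against 70.1% of such genes among all) it lay on the side of the mean of the narrow windows. By replicates 1 to 3 alone, 38 genes were outside the range of the narrow windows, and replicate 4 was shifted towards the narrow windows in 27 of them (71.1%), against 54.2% for all genes. Whether this came from the age of the embryos within the window or from the preparation of the library was not tested. The counts of the comparison with 2–4 h were 28 higher and 19 lower without replicate 4.

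The levels of the members were closer to each other at 14–17 h than in the other windows, and by the interquartile range so were those of all genes. Over the 65 members overlapped over at most 25% of their span, the SD of log2 TPM was between 0.745 and 0.757 in the libraries at 2–4 h, between 0.690 and 0.717 at 14–14.5 h, between 0.460 and 0.516 at 14–17 h and between 0.744 and 0.766 at 17–17.5 h. Replicate 4 had the highest value of its window, and no 14–17 h library overlapped any other. The interquartile range of the members was between 1.002 and 1.09 at 2–4 h, between 0.802 and 0.844 at 14–14.5 h, between 0.461 and 0.541 at 14–17 h and between 1.004 and 1.08 at 17–17.5 h. Over 4068 genes above 10 TPM in each window, the SD of log2 TPM was between 1.51 and 1.54 at 14–17 h, against between 1.54 and 1.68 in the other windows. Their interquartile range was between 1.53 and 1.59 at 14–17 h, against between 1.72 and 2.08 in the other windows, without overlap. Over 84 cytosolic ribosomal protein genes above 10 TPM in each window, the SD of log2 TPM was between 1.06 and 1.11 at 14–17 h, which was above 2–4 h (0.817 to 0.832) and below the narrow windows (1.20 to 1.23). Their interquartile range, however, was 0.784, 0.762, 0.745 and 0.996 in replicates 1 to 4 at 14–17 h, against between 0.823 and 0.842 at 2–4 h and between 1.25 and 1.27 in the narrow windows, so that replicates 1 to 3 were the lowest of all libraries. The members share a library, its depth and its composition, so this is a description with no test.

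**Figure D4:**
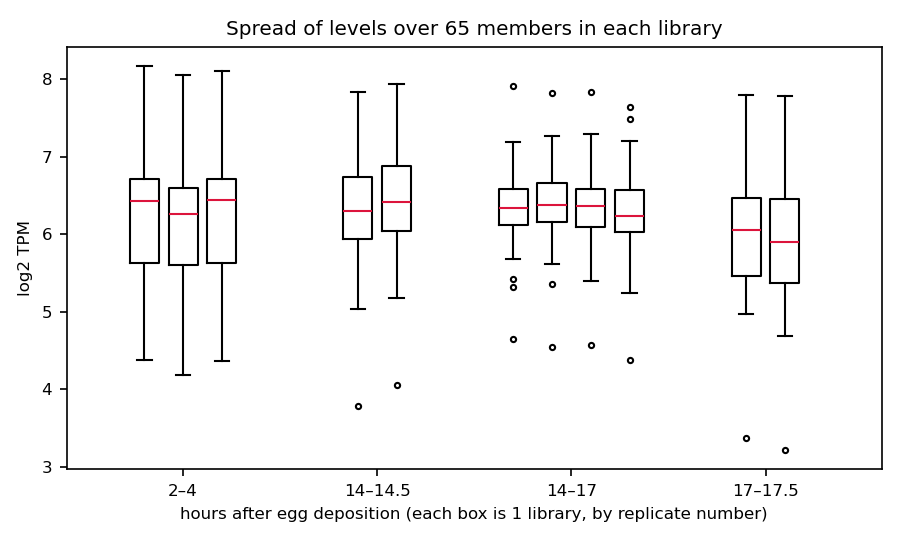
Log2 TPM (y axis) of 65 mitochondrial ribosomal protein genes in each of the 11 libraries, grouped by window in hours after egg deposition (x axis) and ordered by replicate number; boxes span the quartiles with the median in red, whiskers reach 1.5 times the box height and points lie beyond. The boxes at 14–17 h are the shortest, with an SD of 0.460 to 0.516 over the 65 genes.

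Proteins of the mitochondrial ribosome with other symbols are tko, the counterpart of bacterial S12, and bonsai, that of S15. tko averaged 33.4 ± 2.29 TPM at 14–17 h (SD, n = 4), against 46.8 ± 2.83 TPM at 2–4 h (n = 3), a log2 fold change of −0.50 ± 0.11 (SE; adjusted p = 0.0014). bonsai averaged 124 ± 5.48 TPM at 14–17 h, against 122 ± 3.07 TPM at 2–4 h, and did not pass the test (adjusted p = 0.90). At 17–17.5 h, against 14–14.5 h, bonsai fell by 0.26 ± 0.06 on the log2 scale (adjusted p = 0.012), and tko did not pass the test (log2 fold change 0.09 ± 0.07, adjusted p = 0.31).

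Other parts of the mitochondrial expression machinery changed in both directions at 14–17 h against 2–4 h. The lowest log2 fold change in each list of these parts was below −1.23, the lowest of the members apart from mRpL13. The highest in the transcription, replication and RNA handling list was 1.385, below the 1.80 of mRpL38. Of 13 translation factors, 8 were higher and 4 lower, so that 92.3% passed, against 90.6% of all genes tested. One of the 8, GatC, a subunit of the amidotransferase that makes glutaminyl-tRNA, shares its span and all its counts with PolG2 of the transcription and replication list, so 1 measurement is counted in both lists and neither gene could be measured on its own. The elongation factor mEFTu1 averaged 154 ± 16.3 TPM at 14–17 h, against 39.2 ± 14.3 TPM at 2–4 h (log2 fold change 1.93 ± 0.25), whereas the initiation factor mIF3 averaged 17.5 ± 0.804 TPM, against 53.6 ± 1.94 TPM (−1.61 ± 0.09). The call of mRRF1 is uncertain, since its span lies inside Klp67A on the other strand. Of 14 mitochondrial aminoacyl-tRNA synthetases tested, 6 were higher, led by ValRS-m with a log2 fold change of 2.19 ± 0.19, and 5 were lower, led by AspRS-m with −1.75 ± 0.08. The share of synthetases that passed was 78.6%, below that of all genes. Values of the synthetase gene SerRS-m are uncertain too, since its span lies inside Nagk on the other strand.

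Of 17 genes of mitochondrial transcription, replication and RNA handling, 7 were higher and 8 lower at 14–17 h (88.2% passed, against 90.6% of all genes tested). SLIRP1 and mtTFB1 in this list, like PolG2, had the same counts as another gene in every library. Without genes of this kind, 5 of 14 were higher and 7 lower, and of 12 translation factors 7 were higher and 4 lower. The polymerase PolrMT averaged 23.1 ± 2.16 TPM at 14–17 h, against 9.92 ± 1.40 TPM at 2–4 h (log2 fold change 1.19 ± 0.13), and the RNA-binding protein bsf 74.0 ± 4.38 TPM, against 28.5 ± 0.396 TPM (1.37 ± 0.08). The transcription factors mtTFB2 and TFAM were lower, by log2 fold changes of −2.14 ± 0.12 and −1.47 ± 0.10. At 17–17.5 h against 14–14.5 h, 1 translation factor was higher and 3 lower of 13, 8 of 14 synthetases were lower and none higher, and 2 of 17 of the last list were higher and 4 lower. Over all genes tested there, 32.0% were higher and 31.5% lower.

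The cytosolic ribosomal proteins gave other counts in the same fits. At 14–17 h against 2–4 h, 5 of 88 were higher and 32 lower, with a median log2 fold change of −0.19, and at 17–17.5 h against 14–14.5 h, 23 of 86 were higher and 1 was lower, with a median of 0.14. The corresponding medians of the mitochondrial ribosomal protein genes were 0.11 and −0.18, and those over all genes tested were 0.19 and −0.04. Over all genes, 48.2% were higher and 42.4% lower at 14–17 h against 2–4 h. At 17–17.5 h against 14–14.5 h, 32.0% were higher and 31.5% lower. No test of the difference between the lists was made.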

How the data were processed

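Poly(A) mRNA-seq of 11 libraries was used, and each library took its window and replicate from its label. Per the methods, the authors ran kallisto on dm6 with FlyBase annotation after base calling with CASAVA 1.8.2, and the files they deposited hold 1 estimated count for each gene of a library. Beside it stands the TPM that the authors deposited, the same count divided by an effective gene length and scaled to the library. Values of genes whose reads are shared can be split between them, and 7 of the 72 members had estimated counts that were not whole (tolerance 0.01). This set differs from the genes overlapped over more than 25% of their span: it holds mRpL48 and not mRpL17.

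Estimated counts were rounded and tested in pairs of windows with edgeR 4.0.16 (R 4.3.3), with filterByExpr, TMM factors and the quasi-likelihood F-test, and p was adjusted by Benjamini-Hochberg over all genes tested, two-sided, at 0.05. The SE was taken as the size of the log2 fold change over √F. The fit was tested on simulated data. Names, spans and overlaps came from an Ensembl annotation of dm6, read with Python 3.11.15, pandas 2.3.3 and numpy 2.4.6, and figures were drawn with matplotlib 3.10.9. Alternatives were DESeq2 1.42.0, RLE factors, no filter, a fit of all libraries, a block for the replicate number, leaving out each library, other scales of TPM and members overlapped over at most 25% of their span. The last of these and the comparison of 14–17 h with both narrow windows were added after the data were seen.

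Members and lists were chosen with earlier results of these data known. Named genes were the 3 highest and 3 lowest members, up to 5 that rose and 5 that fell most in each comparison among those past the threshold without overlap of libraries, members of known role, members with paralogs, and members with few counts or overlapping genes. mRpS26, mRpL50, mRpL27, mRpL33, mRpL48, mRpL2, mRpL23, mRpS10 and the genes given below for a library far from the others were chosen after their values were seen.

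Depth is given with the results. The SD is over the libraries of a window and the SE is from the fit, so both hold the spread between replicates, and floors of 3 counts cover counting error only.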

Additional observations from a re-analysis of the deposited data

Results flagged for a closer look

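In 6 of 71 members, 1 of the 4 libraries at 14–17 h was far from the other 3 by Dixon's test at the 95% level. Chance gives about 1 in 20, and over 11922 genes 5.7% were found, 48.0% of them for replicate 4. The CPM given here are on the TMM scale over all 11 libraries. Replicate 4 had 47.3 CPM for mRpS7 (39.4 to 40.0 in the others) and 27.5 for mRpS26 (23.2 to 23.5). It had 16.7 for mRpL49 (24.0 to 25.5) and 12.04 for the small subunit gene mRpS6 (12.8 to 12.9). Replicate 3 had 29.4 CPM for mRpL15, a large subunit gene (28.3 to 28.4 in the others), and 18.5 for mRpS28 (16.2 to 16.5).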

How the results depend on the processing

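Of the summary values recomputed, 9 moved. The lower genes at 17–17.5 h against 14–14.5 h were 31, but 12 with DESeq2, 18 with all 11 libraries in the fit, and from 10 to 24 when leaving out 1 library. The higher genes at 17–17.5 h against 2–4 h were 36, and from 23 to 32 when leaving out 1 library. The ratios of summed TPM at 17–17.5 h were 0.856 against 2–4 h and 0.774 against 14–14.5 h. On the TMM scale over all 11 libraries they were 0.972 and 0.911. RLE factors moved the median of all genes at 14–14.5 h against 2–4 h from 0.11 to 0.25. Of the values of single genes, 1196 kept their side of the threshold, 101 no longer passed, 46 newly passed and 1 turned: mRpL41 at 17–17.5 h against 2–4 h had a log2 fold change of −0.06 (−0.0578) without replicate 2 at 17–17.5 h, against 0.30 with it, and 0.3944 without replicate 1. The causes were not tested.

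A block for the replicate number gave 27 higher and 18 lower genes at 14–17 h against 2–4 h. It gave 28 higher and 18 lower at 14–14.5 h and 32 higher and 23 lower at 17–17.5 h, both against 2–4 h. Between 17–17.5 h and 14–14.5 h it gave 3 higher and 22 lower. Deviations of same-numbered libraries at 14–17 h and 2–4 h correlated with 0.06, −0.04 and 0.08, so the numbers were not taken to pair the libraries. The same correlations were −0.05 and −0.07 for 14–14.5 h with 2–4 h, 0.20 and 0.05 for 17–17.5 h with 2–4 h, and −0.03 for both numbers between 17–17.5 h and 14–14.5 h. The values of that last pair are equal by construction, since the deviations of 2 libraries from their mean are exact opposites. With 2 libraries in 2 windows, the tests there rest on a spread estimated across genes.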
